A study of Danio rerio with 6 samples.

Results

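The genes described here are the ligands, receptors and Smad transducers of transforming growth factor beta (TGF-beta), as counted in livers of adult zebrafish (Danio rerio). A list of 10 gene names (tgfb1a, tgfb1b, tgfb3, tgfbr1a, tgfbr1b, tgfbr2a, tgfbr2b, smad2, smad3a and smad7) was matched to the gene symbols of the counts table. The names were selected on the differences between these lf:Yap and WT livers seen earlier, that is, on the fold changes and p-values of the contrast described below. They matched 11 rows of the 25640 in the table, since TGFBR1, TGFBR2 and SMAD3 each stand beside 2 Ensembl gene IDs, written in capitals and with no paralog letter. These rows are therefore given with their IDs, and no ID is assigned to an a or b paralog. All 11 rows passed the filter on low counts.

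The livers were those of transgenic fish labelled lf:Yap (3 libraries) and of wild-type fish (WT, 3 libraries), all adult and with no other allele or treatment on the labels. The labels give neither the promoter nor the allele of the transgene, nor whether a library is 1 fish or a pool, and the spread on which every p-value here rests is that between libraries, which may in part be technical. Polyadenylated RNA was sequenced, and the study's title concerns how the Hippo pathway coactivator Yap changes glutamine metabolism, nucleotide synthesis and liver growth. Values are CPM, counts of reads brought to a common library size, with library sizes adjusted by TMM, a method that corrects for differences in RNA composition.

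TGF-beta ligands are secreted as dimers held latent in the matrix until they are released. An active ligand binds a type II receptor kinase, which brings in and phosphorylates a type I receptor kinase, and this in turn phosphorylates Smad2 and Smad3, which enter the nucleus with Smad4. In mammalian liver the pathway is known for restraining hepatocyte proliferation and for activating stellate cells to deposit matrix, and Smad7 is a target that feeds back to block the receptors.

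The lf:Yap libraries held 76038709 to 85208212 counts and the WT libraries 71581315 to 87543545. YAP1 (ENSDARG00000068401) read 443, 386 and 291 CPM in the lf:Yap libraries and 22.6, 27.4 and 20.4 CPM in the WT libraries, which is the direction the labels give. Hepatocyte genes, most of them abundant, marked the tissue as liver. Their 9 rows summed to 99300 to 110000 CPM in lf:Yap and 74100 to 82900 CPM in WT, sums that did not overlap and whose part in the results below was not tested. The rows did not move together, with 6 log2 fold changes above 0, 3 below and a median of 0.07. The largest, tfa, averaged 37500 CPM in lf:Yap and 22400 CPM in WT, while FGB averaged 5830 and 7370 CPM. Of those 9, edgeR called 0 and DESeq2 called 1 higher, against 0.665% and 4.18% of all rows they tested. An unadjusted edgeR p under 0.05 was seen for 3 higher and 1 lower, against 11.3% of all tested rows. In 5 of the 9 the groups did not overlap (55.6%, against 17.6% of all tested rows). HPD, a tyrosine breakdown enzyme gene, averaged 0.129 CPM in lf:Yap and 0.942 CPM in WT and was at 0 in 1 lf:Yap library. Exocrine and endocrine pancreas genes varied widely within both groups, from 26.7 to 11400 CPM in lf:Yap and from 398 to 9900 CPM in WT. Of the whole table, 24674 rows were tested with edgeR's quasi-likelihood test, and 164 passed at a Benjamini-Hochberg adjusted p under 0.05. Of all tested rows 0.555% were called higher in lf:Yap and 0.109% lower, which is 0.665% together, and in 17.6% the groups did not overlap.

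One receptor row stood out in the lf:Yap livers while the other 10 rows did not pass the test. A TGFBR2 row (ENSDARG00000034541), a type II receptor gene, rose about 6-fold. Of the 11 rows 1 was higher and 0 were lower in lf:Yap at an adjusted p under 0.05 by edgeR. DESeq2 and limma-voom also called 1 higher and 0 lower, against 4.18% and 0.754% of all rows they tested, and 1 row had an unadjusted p under 0.05, against 11.3%. Since this contrast chose the genes, these counts and the p-values of the rows describe the libraries and are not independent evidence. The median log2 fold change of the 11 rows was 0.28, against -0.03 over all tested rows, and 9 of the 11 lay above 0, against 46.8% of all tested rows. The groups did not overlap in 2 of the 11 rows (18.2%), both of them TGFBR2, which is close to the 17.6% of all tested rows.

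**Figure D1:**
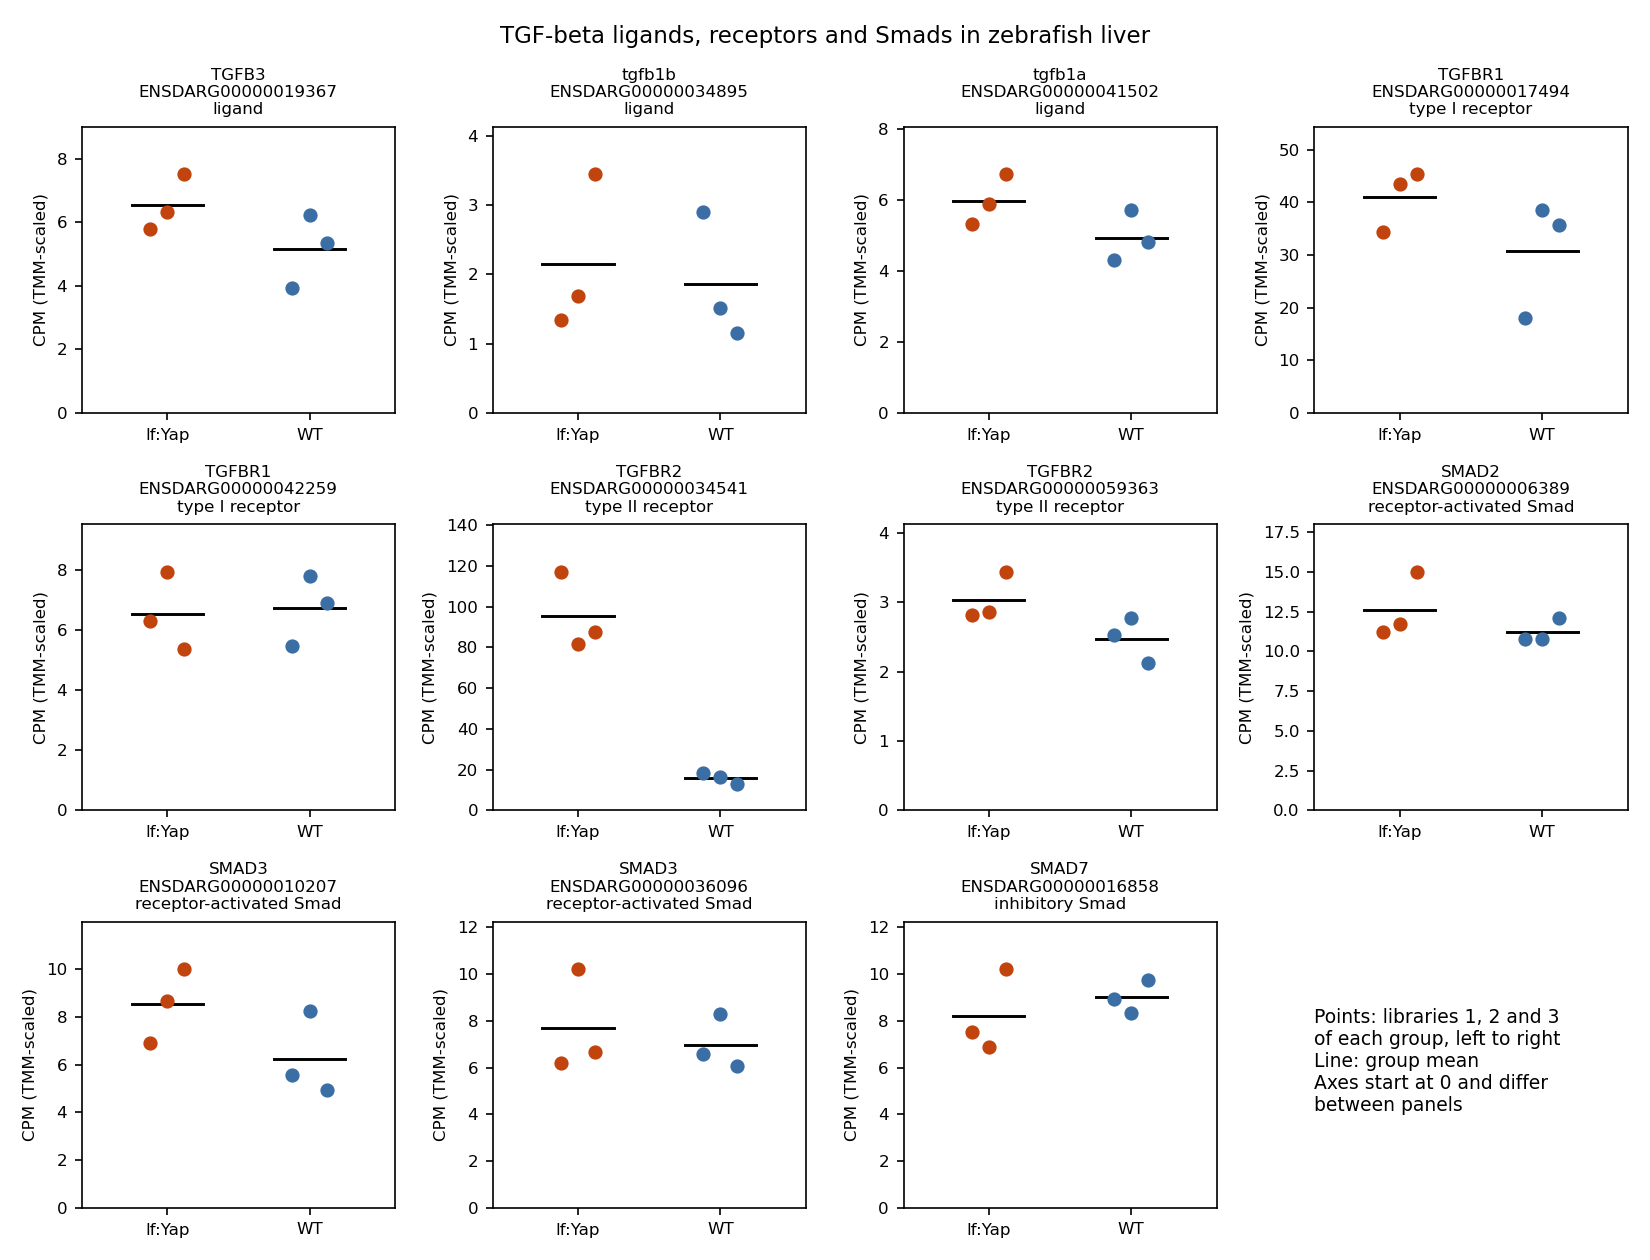
TMM-scaled CPM (vertical axes from 0, each panel with its own scale) of the 11 rows in the 3 lf:Yap libraries (left, orange) and the 3 WT libraries (right, blue), with the group means as lines. TGFBR2 ENSDARG00000034541 stands at 81.6 to 117 CPM in lf:Yap, above the 13.1 to 18.3 CPM of WT, while the points of the other panels overlap or, for TGFBR2 ENSDARG00000059363, lie close together.

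The 3 ligand rows were low in both groups. The ligand gene tgfb1a (ENSDARG00000041502) read 5.33, 5.88 and 6.71 CPM in the lf:Yap libraries and 4.29, 5.70 and 4.81 CPM in the WT libraries. Its paralog tgfb1b (ENSDARG00000034895) read 1.34, 1.68 and 3.44 CPM in lf:Yap and 2.90, 1.52 and 1.15 CPM in WT. TGFB3 (ENSDARG00000019367), which encodes a further ligand of the same receptors, read 5.80, 6.31 and 7.50 CPM in lf:Yap and 3.92, 6.23 and 5.35 CPM in WT. For each ligand the highest WT library was above the lowest lf:Yap library, so the groups overlapped. The log2 fold changes were 0.28 ± 0.22 for tgfb1a, 0.21 ± 0.50 for tgfb1b and 0.34 ± 0.25 for TGFB3 (SE), with edgeR adjusted p-values of 0.737, 0.931 and 0.704.

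The SE of the tgfb1b difference was the largest of the 11 rows, and the spread came from 1 library on each side. The lf:Yap library 3 and the WT library 1 were the highest of their groups. These were also the libraries highest in macrophage genes, whose 9 tested rows summed to 188, 187 and 387 CPM in lf:Yap and to 485, 214 and 190 CPM in WT. Macrophage genes were not alone in this. The stellate cell and fibroblast, endothelial, neutrophil, T and NK cell and pancreas sums were also highest in these libraries of their groups. The hepatocyte, B cell, erythrocyte, thrombocyte, cholangiocyte and intestine sums were not highest in both. Of these 9 macrophage rows 0 passed the test in either direction by any of the 3 tools, and 0 had an unadjusted p under 0.05. The part of macrophages or of any of these other cells in the tgfb1b level was not tested. The tgfb1b difference took both signs as libraries were left out: it was -0.29 without lf:Yap replicate 3, -0.06 without WT replicate 3 and 0.70 without WT replicate 1 (log2).

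Type I receptor genes showed no change that passed the test. TGFBR1 (ENSDARG00000017494) read 34.3, 43.4 and 45.3 CPM in the lf:Yap libraries and 18, 38.5 and 35.7 CPM in the WT libraries. WT library 1 lay far below the other 5 libraries, which ran from 34.3 to 45.3 CPM. Its log2 fold change was 0.42 ± 0.31 (SE; adjusted p = 0.707, edgeR), and 0.16 without WT replicate 1. The second TGFBR1 row (ENSDARG00000042259) read 6.30, 7.93 and 5.36 CPM in lf:Yap and 5.46, 7.80 and 6.91 CPM in WT, a difference of -0.04 ± 0.25 (log2, SE) with an adjusted p of 0.975 by edgeR. Its groups covered nearly the same range.

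The type II receptor row that rose, TGFBR2 ENSDARG00000034541, read 117, 81.6 and 87.4 CPM in the lf:Yap libraries and 18.3, 16.5 and 13.1 CPM in the WT libraries. Every lf:Yap library was above every WT library, and the gap between the groups was wider than either group's own range. In reads, these were 9635, 5928 and 6303 counts in lf:Yap and 1454, 1480 and 1129 counts in WT, so counting error was small beside the spread between libraries. The means were 95.4 ± 19.1 CPM in lf:Yap and 16.0 ± 2.67 CPM in WT (SD, n = 3 each), a 5.97-fold difference with a 95% interval of 4.02 to 8.88. On the log2 scale this was 2.58 ± 0.24 (SE; adjusted p = 0.00985, edgeR; 0.00723 by limma-voom). By p the row ranked 29th among the 24674 tested rows, and by fold change it ranked 73rd among the 137 called higher. The direction held in all of 15 alternative fits, with log2 fold changes of 2.40 to 2.75, but 4 of them ended the call. Leaving out WT replicate 2 gave an adjusted p of 0.0625 and leaving out WT replicate 3 gave 0.0507, and it was 0.0536 with the replicate number as a block and 0.0756 without both WT library 1 and lf:Yap library 3.

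The second type II receptor row, TGFBR2 ENSDARG00000059363, did not pass the test. It read 2.82, 2.86 and 3.44 CPM in the lf:Yap libraries and 2.53, 2.77 and 2.12 CPM in the WT libraries. Its lf:Yap libraries were all above its WT libraries, the nearest by 2.82 against 2.77 CPM. The log2 fold change was 0.30 ± 0.25 (SE; adjusted p = 0.750, edgeR), with a 95% interval from -0.30 to 0.89, which does not reach that of the raised row, from 2.01 to 3.15. Summed over both TGFBR2 rows, the level was 120, 84.5 and 90.8 CPM in lf:Yap and 20.9, 19.3 and 15.2 CPM in WT, a 5.34-fold ratio of the means. Summed over both TGFBR1 rows it was 40.6, 51.3 and 50.7 CPM in lf:Yap and 23.4, 46.3 and 42.6 CPM in WT, a ratio of 1.27.

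**Figure D2:**
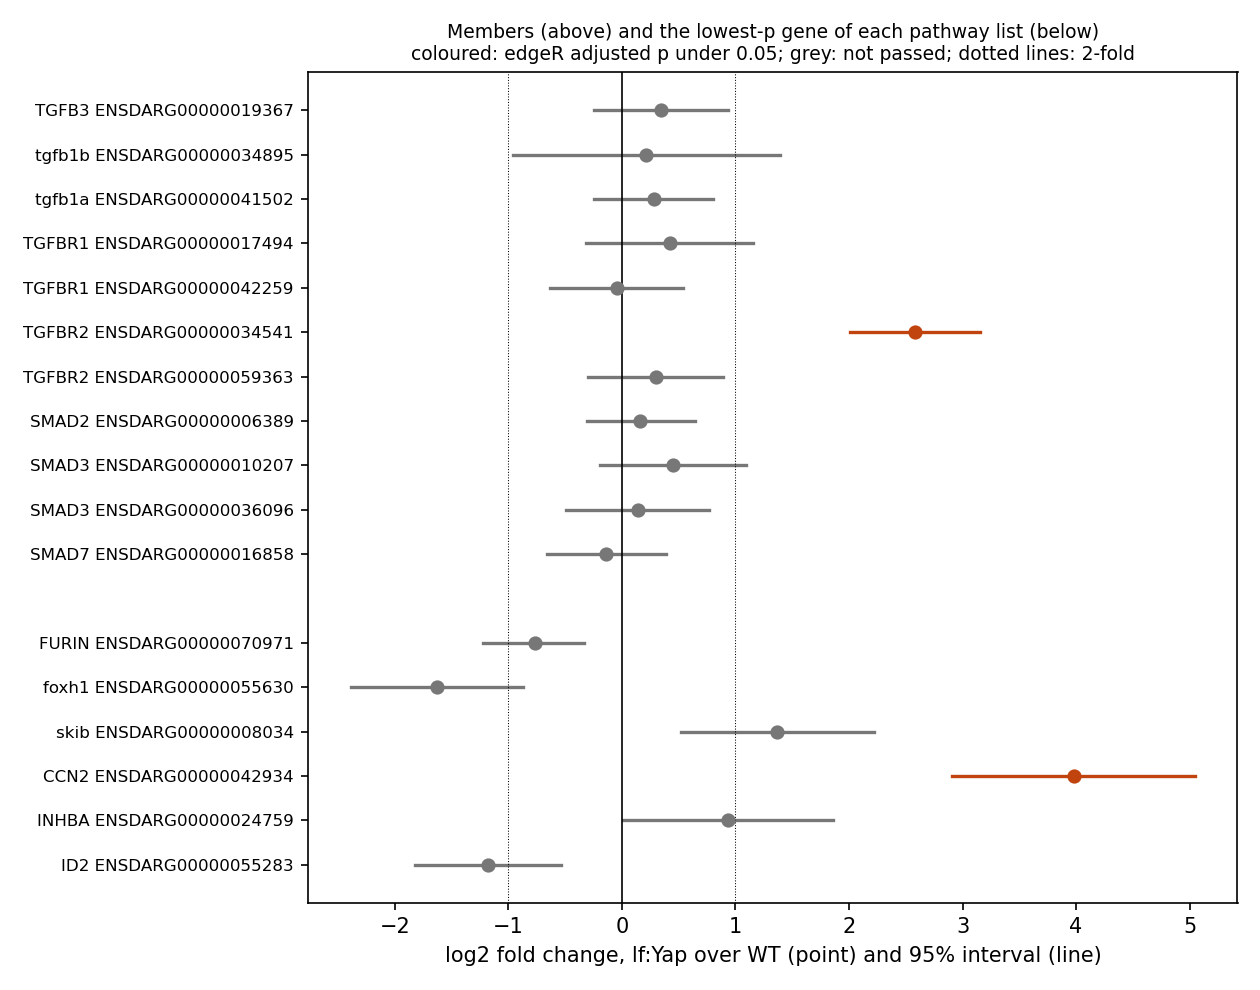
Log2 fold changes of lf:Yap over WT (horizontal axis; points) with 95% intervals (lines) for the 11 rows and, below them, for the lowest-p gene of each of 6 pathway lists; colour marks an edgeR adjusted p under 0.05. TGFBR2 ENSDARG00000034541 (2.58) and CCN2 (3.98) are coloured, and the intervals of all other members include 0.

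The balance of the TGFBR2 paralogs in each lf:Yap library differed from that in each WT library. The raised row held 97.6%, 96.6% and 96.2% of the reads of the pair in the lf:Yap libraries and 87.9%, 85.6% and 86.1% in the WT libraries. Each share rests on 1312 to 9867 reads, with exact Clopper-Pearson 95% intervals that ran from 95.7% to 97.9% across the lf:Yap libraries and from 83.9% to 89.4% across the WT libraries and that cover counting error only. Since transcript lengths were not used here, a share compares groups and not the amounts of the paralogs. How reads that fit both paralogs were assigned is not known. The log2 ratio of the paralogs averaged 4.96 ± 0.37 in lf:Yap and 2.69 ± 0.15 in WT (SD, n = 3 each), a difference of 2.27 that does not depend on library size. That difference largely restates the rise of the raised row and is not evidence apart from it. The log2 ratio of the raised row to every other member also differed without overlap, by 2.09 (TGFBR1 ENSDARG00000017494) to 2.73 (SMAD7). The first TGFBR1 row over the second had a log2 ratio of 2.44, 2.45 and 3.08 in lf:Yap and of 1.72, 2.30 and 2.37 in WT, so these groups touched closely without overlap and differed by 0.53 on average, or by 0.32 without WT replicate 1. For SMAD3 the difference in the log2 ratio was 0.35 and for tgfb1a over tgfb1b 0.07, and in both pairs the groups overlapped. The tgfb1 ratio was lowest in lf:Yap library 3 (0.96) and in WT library 1 (0.56), the libraries in which tgfb1b was high.

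**Figure D3:**
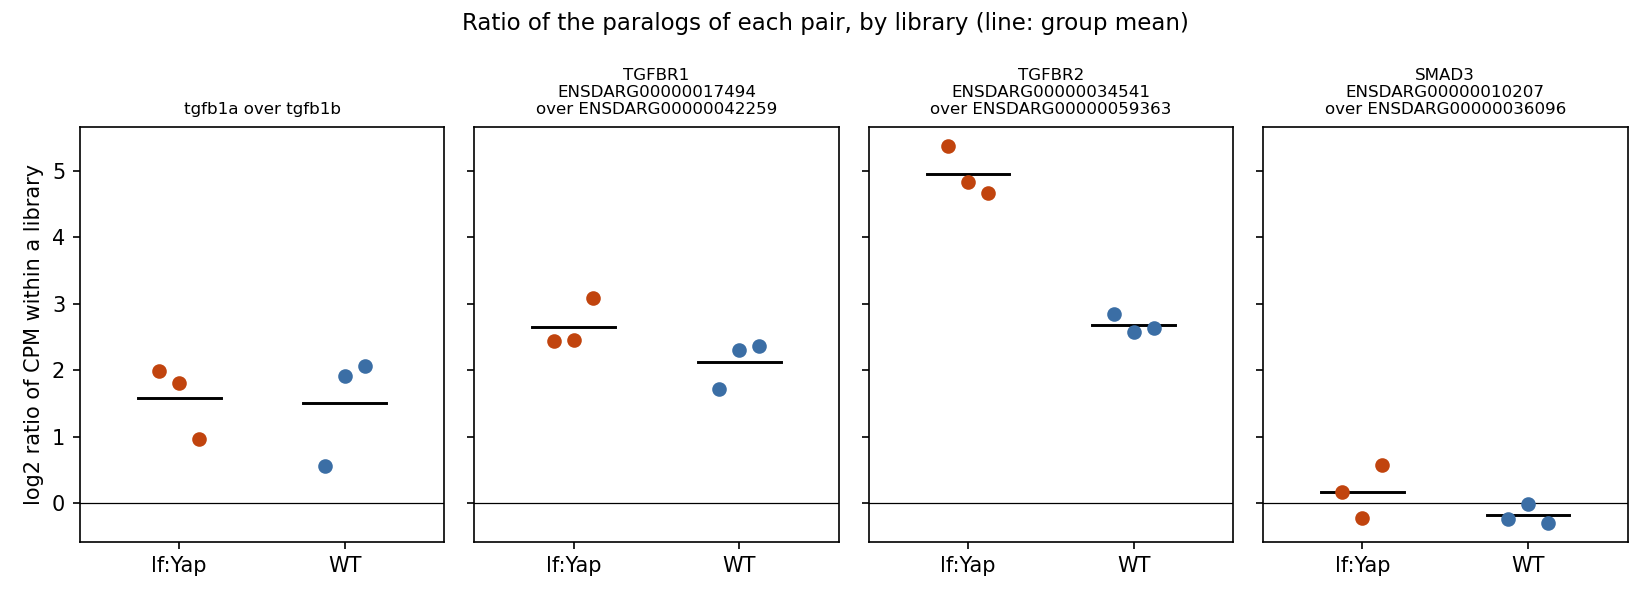
Log2 ratio of the CPM of 2 paralogs within each library (vertical axis, shared), for tgfb1a over tgfb1b, the TGFBR1 rows, the TGFBR2 rows and the SMAD3 rows, in lf:Yap (left, orange) and WT (right, blue), with group means as lines. The TGFBR2 ratio lies at 4.67 to 5.38 in lf:Yap and 2.58 to 2.85 in WT, and the other pairs differ by 0.07 to 0.53 on average.

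None of the 4 Smad rows passed the test. SMAD2 (ENSDARG00000006389), a transducer phosphorylated by the type I receptor, read 11.2, 11.7 and 15.0 CPM in the lf:Yap libraries and 10.8, 10.8 and 12.1 CPM in the WT libraries. The log2 fold change was 0.16 ± 0.20 (SE), and lf:Yap library 3 stood above the other 5. SMAD3 ENSDARG00000010207, from the gene of the other TGF-beta transducer, read 6.91, 8.68 and 9.99 CPM in lf:Yap and 5.59, 8.23 and 4.93 CPM in WT, with WT library 2 among the lf:Yap values. Its log2 fold change, 0.45 ± 0.27 (SE), was the second highest of the 11 and did not pass (adjusted p = 0.621, edgeR). SMAD3 ENSDARG00000036096 read 6.19, 10.2 and 6.67 CPM in lf:Yap and 6.58, 8.29 and 6.06 CPM in WT, and library 2 was the highest of each group. Its log2 fold change was 0.14 ± 0.27 (SE), and -0.12 without lf:Yap replicate 2.

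SMAD7 (ENSDARG00000016858), encodes the inhibitory Smad. It read 7.51, 6.89 and 10.2 CPM in the lf:Yap libraries and 8.93, 8.34 and 9.74 CPM in the WT libraries, so that the WT values lay inside the lf:Yap range. The log2 fold change was -0.14 ± 0.22 (SE; adjusted p = 0.893, edgeR), with a 95% interval of 0.631 to 1.31 as a fold. For 7 of the 10 rows that did not pass, the 95% interval lay within a 2-fold change in either direction, against 33.2% of all tested rows. The exceptions were tgfb1b, TGFBR1 ENSDARG00000017494 and SMAD3 ENSDARG00000010207, whose intervals reached 2.61-fold, 2.22-fold and 2.13-fold upward. The width of an interval also depends on the number of reads, and the share among rows of like abundance was not determined.

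Cells other than hepatocytes carry much of the known TGF-beta response in liver, so their marker genes were set beside the receptor. The 11 tested endothelial rows, of 12 in the list, summed to 110, 96.3 and 138 CPM in the lf:Yap libraries and 106, 79.4 and 76.0 CPM in the WT libraries, a ratio of means of 1.32. Of these rows 0 were called by edgeR or limma-voom and 1 lower by DESeq2, against 4.18% of all rows that DESeq2 tested. An unadjusted edgeR p under 0.05 was seen for 2 higher and 1 lower, against 11.3% of all tested rows. Their median log2 fold change was 0.47, with 9 rows above 0 (81.8%, against 46.8% of all tested rows) and 2 below. In 4 of them the groups did not overlap (36.4%, against 17.6%). The second list, 13 stellate cell and fibroblast rows, summed to 141, 102 and 151 CPM in lf:Yap and 139, 120 and 97.9 CPM in WT, with 0 called by any of the 3 tools and 0 at an unadjusted p under 0.05. No marker of either list was at 0 in a tested row. Both sums overlapped between the groups, and the part of these cells in the level of TGFBR2 ENSDARG00000034541 was not tested. For the other marker lists outside hepatocytes, ratios of means ran from 0.857 (macrophage) to 1.87 (neutrophil). The neutrophil sums ran from 27.3 to 59.8 CPM in lf:Yap and from 14.7 to 28.5 CPM in WT. The part of those cells was not tested either. In bulk liver, a change in the number of cells of a type and a change in RNA per cell cannot be told apart.

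The other genes of the pathway were read from 6 lists, with the 11 rows above left out. The lists held 111 rows, of which 1 was called higher, 0 lower and 110 did not pass by edgeR, against 0.665% of all tested rows called. An unadjusted edgeR p under 0.05 was seen for 15 of the 111, against 11.3% of all tested rows. DESeq2 called 7 and limma-voom called 1, against 4.18% and 0.754% of all rows they tested. The same shares over all rows stand beside the counts of each list below. Their median log2 fold change was 0.05.

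Genes for latency and activation cover latent TGF-beta binding proteins, integrins, thrombospondin and proteases that release or process the ligand. Of 15 rows edgeR and limma-voom called 0 and DESeq2 called 1 lower; 1 higher and 1 lower had an unadjusted p under 0.05, and the median was -0.14. The lowest p was that of FURIN ENSDARG00000070971, from a gene for the protease that cleaves the TGF-beta precursor, which read 37.3, 35.0 and 39.5 CPM in lf:Yap and 70.0, 66.7 and 54.1 CPM in WT. All lf:Yap libraries were below all WT libraries, and the difference of -0.77 ± 0.19 (log2, SE) had an adjusted p of 0.173 by edgeR and 0.0164 by DESeq2. The other FURIN row, ENSDARG00000062909, named after its values were seen, was more abundant. It read 157, 136 and 196 CPM in lf:Yap and 224, 199 and 137 CPM in WT, so its groups overlapped. Its log2 fold change was -0.20 ± 0.25 (SE, adjusted p = 0.854 by edgeR). MMP9 (ENSDARG00000042816), a matrix protease gene also on the neutrophil marker list and named after its values were seen, read 18.9, 16.1 and 27.8 CPM in lf:Yap and 7.65, 0.737 and 7.85 CPM in WT (adjusted p = 0.395, edgeR).

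Among 10 rows of other Smads, cofactors and co-receptors edgeR and limma-voom called 0, and DESeq2 called 1 lower, the same 1 that had an unadjusted p under 0.05. The median was 0.20. The lowest p belonged to foxh1 (ENSDARG00000055630), a DNA-binding partner of Smad2 in Nodal and activin signalling. It read 0.986, 0.937 and 0.776 CPM in the lf:Yap libraries and 3.68, 2.15 and 2.55 CPM in the WT libraries, with no overlap. The difference of -1.63 ± 0.32 (log2, SE) had an adjusted p of 0.099 by edgeR and 0.000537 by DESeq2.

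Inhibitors of TGF-beta signalling gave 0 of 18 rows past the test by edgeR and limma-voom and 1 higher by DESeq2. With 2 rows higher at an unadjusted p under 0.05, the median was 0.12. The lowest p was that of skib (ENSDARG00000008034), from the Ski family of Smad corepressors, which read 4.73, 2.40 and 5.83 CPM in lf:Yap and 1.63, 1.74 and 1.64 CPM in WT. The lf:Yap libraries varied more than 2-fold among themselves and all lay above WT, a difference of 1.37 ± 0.36 (log2, SE) with an adjusted p of 0.205 by edgeR and 0.0203 by DESeq2. The row SKI (ENSDARG00000042151), named after its values were seen, was more abundant. It read 18.7, 10.2 and 17.6 CPM in lf:Yap and 15.3, 15.8 and 9.24 CPM in WT, so its groups overlapped. Its log2 fold change was 0.20 ± 0.32 (SE, adjusted p = 0.888 by edgeR). PMEPA1 (ENSDARG00000039325), a membrane protein gene that TGF-beta induces in mammals and whose product dampens Smad activation, was named after its values were seen. It read 8.72, 4.45 and 6.51 CPM in lf:Yap and 3.93, 2.53 and 2.56 CPM in WT, a difference of 1.13 ± 0.33 (log2, SE; adjusted p = 0.257 by edgeR).

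Genes known from other cells and mammals as responses to TGF-beta and Smads gave 1 of 32 rows called higher and 0 lower, by edgeR and limma-voom alike, and 2 higher by DESeq2. Of these rows 4 higher and 1 lower had an unadjusted p under 0.05, and the median was 0.06. The row that rose was CCN2 (ENSDARG00000042934), which encodes connective tissue growth factor and is also a known Yap target. It read 24.7, 46.5 and 36.9 CPM in lf:Yap and 2.29, 3.36 and 1.19 CPM in WT. The groups lay far apart, by 3.98 ± 0.45 (log2, SE), with an adjusted p of 0.0172 by edgeR. Without 1 library its adjusted p was 0.0715, 0.0526 and 0.0507 (WT replicates 1, 2 and 3) and 0.0511 and 0.0541 (lf:Yap replicates 2 and 3), and it was 0.042 without lf:Yap replicate 1.

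TGFBI (ENSDARG00000071586), a matrix protein gene named for its induction by TGF-beta, is given after its values were seen. It read 260, 52.0 and 250 CPM in the lf:Yap libraries and 13.7, 4.02 and 13.0 CPM in the WT libraries. In each group library 2 was the lowest, by a wide margin, and the groups did not overlap. The difference was 4.19 ± 0.75 on the log2 scale (SE), with an adjusted p of 0.0796 in edgeR, 1.19e-08 in DESeq2 and 0.0788 in limma-voom. Without 1 library the edgeR adjusted p was 0.0409 for lf:Yap replicate 2 and 0.157 to 0.22 for the other 5.

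**Figure D4:**
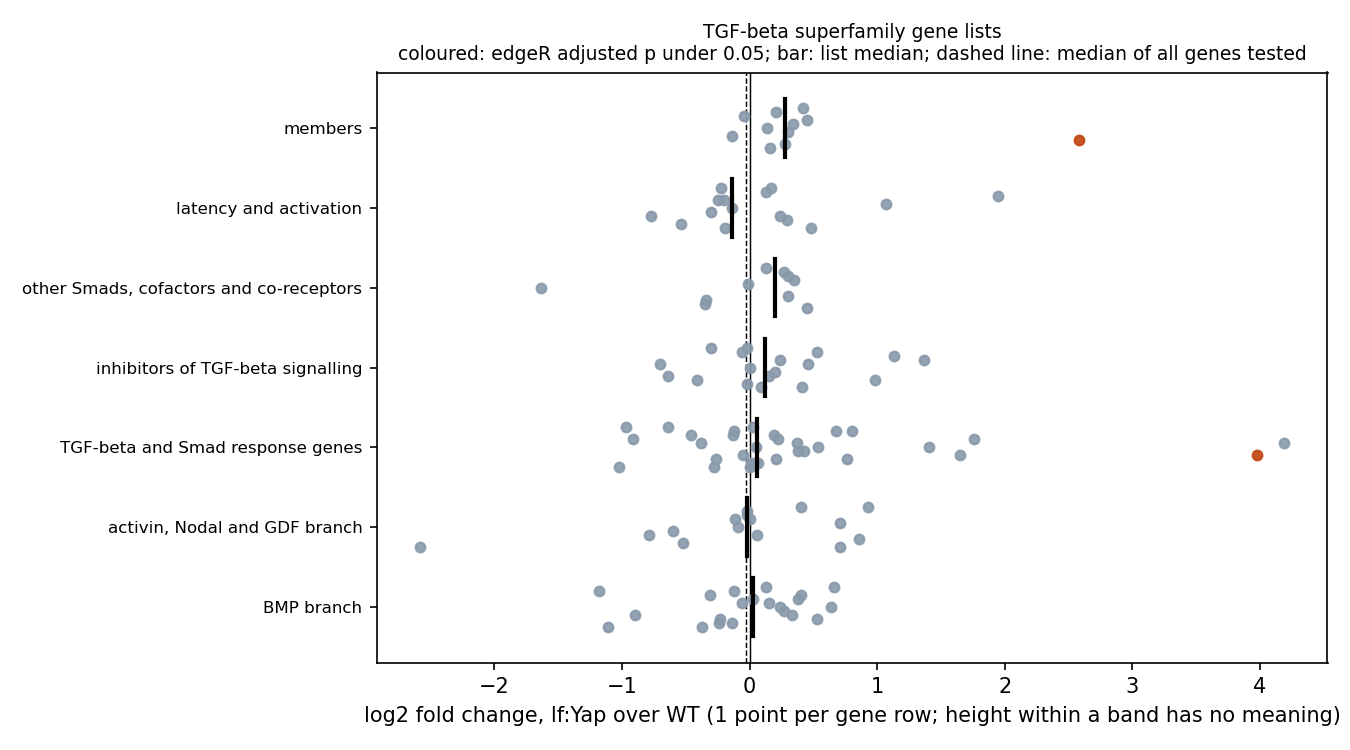
Log2 fold changes of lf:Yap over WT (horizontal axis), 1 point per row, for the 11 TGF-beta rows and the 6 pathway lists; bars are list medians, the dashed line is the median of all tested rows, and colour marks an edgeR adjusted p under 0.05. Only TGFBR2 ENSDARG00000034541 (2.58) and CCN2 (3.98) are coloured, and the list medians run from -0.14 to 0.28.

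The activin, Nodal and GDF branch shares Smad2 and Smad3 with TGF-beta but uses other receptors. Of its 15 rows 0 were called by any of the 3 tools, 1 was higher at an unadjusted p under 0.05, and the median was -0.02. The lowest p was that of INHBA ENSDARG00000024759, from a gene for an activin subunit, which read 36.9, 34.4 and 20.7 CPM in lf:Yap and 8.52, 16.7 and 22.9 CPM in WT. WT library 3 lay above lf:Yap library 3, and the log2 fold change was 0.93 ± 0.40 (SE; adjusted p = 0.438, edgeR).

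The bone morphogenetic protein (BMP) branch signals through Smad1, Smad5 and Smad9. Of its 21 rows edgeR and limma-voom called 0 and DESeq2 called 2 lower, and the median was 0.03. All 4 rows with an unadjusted p under 0.05 were Id genes, the usual readout of BMP signalling in mammals, and all but the lowest-p one are named after their values were seen. ID2 (ENSDARG00000055283) read 15.6, 12.0 and 21.3 CPM in the lf:Yap libraries and 32.6, 33.2 and 45.1 CPM in the WT libraries. Its groups did not overlap, and the difference was -1.18 ± 0.27 (log2, SE), with an adjusted p of 0.153 by edgeR and 0.00749 by DESeq2. ID1 (ENSDARG00000040764) read 9.17, 9.25 and 14.2 CPM in lf:Yap and 17.7, 20.0 and 23.0 CPM in WT, a difference of -0.90 ± 0.25 (log2, SE) with an adjusted p of 0.22 by edgeR. The second Id2 gene, id2b (ENSDARG00000029544), read 2.43, 1.96 and 1.66 CPM in lf:Yap and 2.77, 5.59 and 4.69 CPM in WT (adjusted p = 0.269, edgeR). ID3 (ENSDARG00000054823) lay the other way, at 40.3, 43.4 and 37.5 CPM in lf:Yap and 30.1, 27.1 and 26.8 CPM in WT (log2 fold change 0.53 ± 0.18, SE; adjusted p = 0.313, edgeR).

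The genes most like the members were taken as the 3 with the highest Pearson correlation of log2(CPM + 2) over the 6 libraries, among 10014 genes with a mean of at least 5 CPM. For TGFBR2 ENSDARG00000034541 the gap between the groups sets this measure, and 451 genes exceeded 0.9. Among its nearest were ENSDARG00000071039, which has no symbol (r = 0.997), and DECR2 (ENSDARG00000045257), a peroxisomal fatty acid oxidation gene (r = 0.996). ENSDARG00000071039 read 50, 41.7 and 42.4 CPM in the lf:Yap libraries and 4.89, 4.57 and 3.53 CPM in the WT libraries, and lf:Yap library 1 was the highest, as for the receptor. DECR2 kept the same order of groups on a much smaller scale, at 21.2, 20.4 and 20.2 CPM in lf:Yap and 15.6, 15.9 and 15.3 CPM in WT. For TGFB3 the nearest were pnpla7a (ENSDARG00000062986; r = 0.994), of a lysophospholipase family, and the membrane metalloproteinase gene MMP15 (ENSDARG00000013072; r = 0.990), and then ENSDARG00000078258 (r = 0.978). For SMAD3 ENSDARG00000010207 they were the N-cadherin gene CDH2 (ENSDARG00000018693; r = 0.986), the transcription factor gene NFIX (ENSDARG00000061836; r = 0.984) and RTF2 (ENSDARG00000040607; r = 0.982), a replication fork protein gene. Of the 10014 genes, 71 exceeded 0.9 for TGFB3 and 98 for SMAD3 ENSDARG00000010207. These correlations are given as a description.

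**Figure D5:**
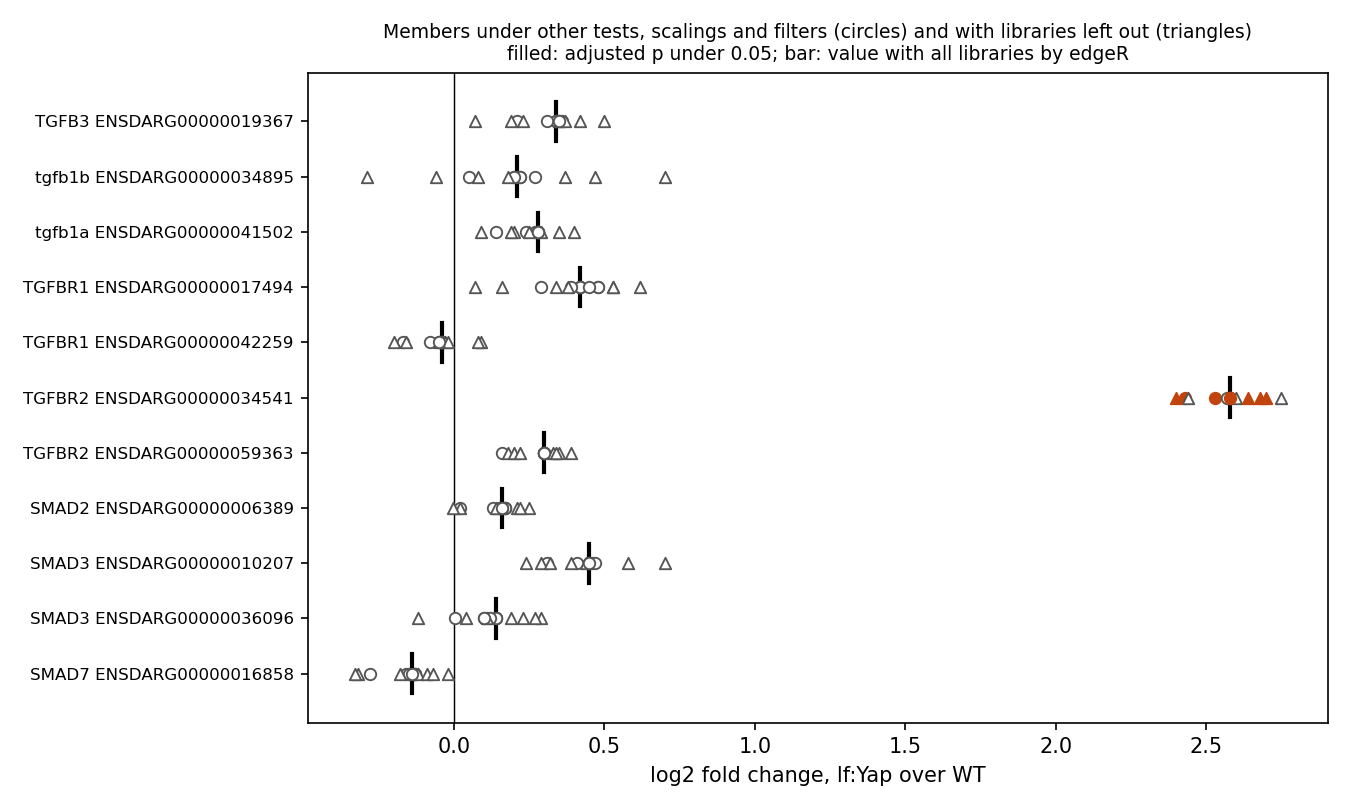
Log2 fold change of lf:Yap over WT (horizontal axis) of each of the 11 rows with all libraries by edgeR (bars), under other tests, scalings, filters and covariates (circles) and with 1 or 2 libraries left out (triangles); filled symbols have an adjusted p under 0.05. TGFBR2 ENSDARG00000034541 stays between 2.40 and 2.75 with both filled and open symbols, and no symbol of the other 10 rows is filled.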

How the data were processed

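The authors deposited 1 table, named as processed counts, by Ensembl gene ID and library. It was taken here as read counts. STAR 2.3.0e and HTSeq 0.6.0 are named per the submitters' processing notes. No genome build, annotation or strand setting is given in the sources used here. How reads that fit both a gene and a paralog, an overlapping or an antisense gene were assigned is therefore not known. Groups and replicate numbers came from the sample titles. A table of gene names gave a symbol to 17999 of the 25640 IDs. A list entry took the row whose symbol equals it, ignoring case, or else rows in capitals that equal it without its paralog letter. Entries shared by more than 2 rows (f2r, mfap4) and rhob, which would have matched rhodopsin, were left out. The members and gene lists were chosen with earlier results of these data known. Named genes are all members, up to 3 rows past the threshold or else the lowest-p row of each pathway list, the 3 genes most like the lowest-p ligand, receptor and Smad, and YAP1; others are said to be named after their values were seen, and a gene that the rule names is not reported here.

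The main test was edgeR 4.0.16's quasi-likelihood test on the counts (R 4.3.3). The filter filterByExpr, given the groups, kept 24674 rows and removed 966; TMM factors ran from 0.939 to 0.965 in lf:Yap and from 1.019 to 1.108 in WT, and dispersions and quasi-likelihood fits were robust. Tests were two-sided with Benjamini-Hochberg adjustment over all rows at 0.05. The SE is the log2 fold change divided by the square root of F, and 95% intervals use its t quantile. An exact permutation of 3 against 3 libraries cannot go below 0.1, so it was not used. Alternatives were DESeq2 1.42.0, limma-voom (limma 3.58.1), other size factors and filters, a replicate block, and libraries left out. DESeq2 tested more rows, since it was run without filterByExpr and with its own filter only. The code was tested on simulated counts. Replicates differed far beyond sampling noise (chi-square per degree of freedom 201 to 359), so none was counted as a repeat.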

Additional observations from a re-analysis of the deposited data

How the results depend on the processing

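The number of all rows called was 164 by edgeR, 1066 by DESeq2, 17 with a replicate block, 44 without both WT library 1 and lf:Yap library 3 (chosen after seeing the data for their macrophage levels), and 32 to 94 without 1 library. WT library 1 and lf:Yap library 3 were also the highest of their groups in several other marker lists, as given above. The TGF-beta rows called higher numbered 1 in most fits, 0 with the replicate block, 0 without both of those libraries and 0 to 1 without 1 library; none was called lower in any fit. The 1 row, TGFBR2 ENSDARG00000034541, had an adjusted p of 0.0536 with the block, 0.0756 without both libraries and 0.0625 and 0.0507 without WT replicates 2 and 3, and its highest adjusted p over the 15 alternatives was 0.0756. Deviations of same-numbered libraries correlated at 0.22, 0.23 and -0.30, and those of differently numbered libraries at -0.41 to 0.24. These values do not settle whether the replicate numbers pair the samples. The block (adjusted p = 0.0494) and the pancreas covariate (0.02) took TGFBI past the threshold, its adjusted p being up to 0.305 (without both libraries) over the 15 alternatives, and the block ended the call of CCN2 (0.0603). With the pancreas level as a covariate, also added after seeing the data, the count of TGF-beta rows called was again 1, with an adjusted p of 0.0192 for TGFBR2 ENSDARG00000034541.

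Values that changed sign without 1 library were those of tgfb1b (-0.29 to 0.70), SMAD3 ENSDARG00000036096 (-0.12 to 0.29), TGFBR1 ENSDARG00000042259 (-0.20 to 0.09) and tgfbr2l (-0.01 to 0.52); SMAD2 was -0.0041 without both libraries. Scaling by total counts alone moved the median of all genes to -0.17 and changed the sign of no member. List medians moved with total counts to 0.06 (other Smads), -0.01 (inhibitors), -0.10 (response genes), -0.14 (activin) and -0.11 (BMP). With a filter of 5 CPM in 3 libraries they were 0.20 (latency), 0.10 (other Smads), -0.04 (inhibitors), 0.67 (activin) and 0.11 (BMP). That filter leaves fewer rows in each of these lists, and it removes most activin rows, so its medians are not over the same genes. The BMP median was 0.14 by limma-voom and 0.11 with the block, and the activin median 0.06 without both libraries. Without 1 library the medians ran from -0.39 to 0.20 (latency), 0.09 to 0.28 (other Smads), 0.05 to 0.18 (inhibitors), -0.05 to 0.53 (response genes), -0.15 to 0.20 (activin) and 0.01 to 0.16 (BMP). What moved the medians in the other fits was not tested.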

Other observations

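Ligand and receptor genes of the same family that were not on the list of 10 names are given here, chosen after their values were seen. TGFB2 (ENSDARG00000027087), which encodes a further TGF-beta ligand, read 27.3, 10.9 and 13.2 CPM in the lf:Yap libraries and 5.50, 5.66 and 5.52 CPM in the WT libraries. Its WT libraries were close to equal, all lf:Yap libraries lay above them, and lf:Yap library 1 was highest, as for TGFBR2 ENSDARG00000034541. The log2 fold change was 1.62 ± 0.36 (SE; adjusted p = 0.144 in edgeR, 0.00278 in DESeq2 and 0.173 in limma-voom), or 1.11 without lf:Yap replicate 1. The receptor-like row tgfbr2l (ENSDARG00000055136) read 2.17, 3.02 and 4.46 CPM in lf:Yap and 2.80, 2.44 and 2.61 CPM in WT, with a log2 fold change of 0.30 ± 0.32 (SE) and groups that overlapped. The row tgfb5 (ENSDARG00000071879) read 0.596, 0.207 and 0.208 CPM in lf:Yap and 0.479, 0.447 and 0.486 CPM in WT.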
